A study of Mus musculus with 6 samples.

Results

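The small nucleolar RNA host genes Gas5, Zfas1, Snhg1, Snhg3, Snhg5, Snhg6, Snhg8 and Snhg12 were examined in hearts that had lost MRPS5, one of the proteins that make up the mitochondrial ribosome. The 8 genes were taken by name from a table of 54532 genes, and each name matched 1 row. RNA had been sequenced from hearts of 3 control mice (Ctrl), which were Mrps5 fl/fl, and of 3 conditional knockout mice (cKO), which were Mrps5 fl/fl and also carried MCM. MCM is the αMHC-MerCreMer transgene, a Cre recombinase that acts in cardiomyocytes once tamoxifen is given, so that other cells of the heart keep the gene. All 6 mice, controls included, received tamoxifen by intraperitoneal injection at 45 mg/kg per day for 5 days from 8 weeks of age, and hearts were taken 12 weeks later. The control hearts carried no MCM, so an effect of the transgene itself and the loss of Mrps5 cannot be told apart. The labels call the tissue heart, and the methods of the study describe ventricle.

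Small nucleolar RNAs (snoRNAs) guide the chemical modification or the cutting of ribosomal RNA. Those with C and D boxes guide methylation of the ribose, and those with H and ACA boxes guide the conversion of uridine to pseudouridine. In mammals most snoRNAs are cut out of introns of longer host transcripts. The host genes studied here are annotated as noncoding. Several host RNAs of this kind are known to begin with a run of pyrimidines like the mRNAs of ribosomal proteins (a TOP motif, for terminal oligopyrimidine), and the spliced RNA is in several cases removed by nonsense-mediated decay while it is being translated. Levels of these RNAs are therefore usually read beside those of ribosomal protein mRNAs.

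The hosts differed in what they carried. Gas5 held 9 snoRNA positions, Snhg1 held 8, Snhg12 held 4, Zfas1 held 3, Snhg3 and Snhg5 held 2 each, and Snhg6 and Snhg8 held 1 each. Gas5, Zfas1, Snhg1, Snhg5 and Snhg6 carried snoRNAs of the C/D kind, Snhg3 and Snhg8 carried H/ACA snoRNAs, and Snhg12 carried both. In the table these positions made up 32 rows of snoRNA type, since one position in Gas5 and one in Snhg12 were each listed under 2 identifiers. Of the 25 of these rows not named Snora, 21 held both a TGATGA (C box) and, after it, a CTGA (D box), and 6 of the 7 Snora rows held ACA placed 3 bases before the 3′ end.

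Examples of the snoRNAs annotated inside these hosts follow, to show what the hosts carry. They are the annotated DNA-sense sequences of GENCODE M21 (GRCm38), 5′ to 3′, with the C box TGATGA and the last CTGA in capitals for the C/D kind and the terminal ACA in capitals for the H/ACA kind.
Snord47 (inside Gas5, chr1:161038082-161038158, plus strand): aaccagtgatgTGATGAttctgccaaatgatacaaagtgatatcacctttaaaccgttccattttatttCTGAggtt
Snord80 (inside Gas5, chr1:161037601-161037681, plus strand): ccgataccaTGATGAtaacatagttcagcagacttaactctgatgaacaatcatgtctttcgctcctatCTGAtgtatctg
Gm25878 (inside Zfas1, chr2:167063473-167063565, plus strand): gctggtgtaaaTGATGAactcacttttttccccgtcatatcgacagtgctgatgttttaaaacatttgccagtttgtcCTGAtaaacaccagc
Gm23201 (inside Zfas1, chr2:167064998-167065086, plus strand): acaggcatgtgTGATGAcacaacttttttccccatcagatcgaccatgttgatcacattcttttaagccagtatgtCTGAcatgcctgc
Snord12 (inside Zfas1, chr2:167065276-167065365, plus strand): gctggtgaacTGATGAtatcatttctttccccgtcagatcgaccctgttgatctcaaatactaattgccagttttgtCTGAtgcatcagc
Snord50a (inside Snhg5, chr9:88521529-88521600, minus strand): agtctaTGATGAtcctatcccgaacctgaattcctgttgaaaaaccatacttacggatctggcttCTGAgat
Snord50b (inside Snhg5, chr9:88521797-88521868, minus strand): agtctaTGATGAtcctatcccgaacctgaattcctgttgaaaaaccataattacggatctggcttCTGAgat
Snord87 (inside Snhg6, chr1:9942463-9942549, minus strand): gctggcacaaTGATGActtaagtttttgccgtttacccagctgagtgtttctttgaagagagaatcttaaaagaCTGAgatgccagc
Snora24 (inside Snhg8, chr3:123507937-123508066, minus strand): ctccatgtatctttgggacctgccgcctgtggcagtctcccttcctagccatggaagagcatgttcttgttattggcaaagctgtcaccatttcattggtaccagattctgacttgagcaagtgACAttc
Snord99 (inside Snhg12, chr4:132310691-132310764, plus strand): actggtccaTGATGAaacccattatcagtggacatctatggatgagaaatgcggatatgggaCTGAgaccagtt
Snora61 (inside Snhg12, chr4:132310240-132310369, plus strand): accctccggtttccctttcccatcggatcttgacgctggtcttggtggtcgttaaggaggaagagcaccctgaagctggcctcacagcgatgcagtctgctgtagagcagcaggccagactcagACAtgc
Snord50a and Snord50b, the pair inside Snhg5, were both 72 bases long and differed by 1 substitution, C50A, with positions counted from the 5′ end and the base of Snord50a first. Reads of the snoRNAs themselves could not be followed. All 32 rows inside the hosts were at 0 reads in all 6 hearts, and 1564 reads in total fell on the 1507 snoRNA rows of the deposited data. The libraries were selected for poly-A, which mature snoRNAs lack, so the values below describe host transcripts and not snoRNA levels.

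The host values also mix forms of the transcript. Gas5 (ENSMUSG00000053332, chr1:161034422-161038539, plus strand) was annotated with 25 transcripts, of which 20 retain an intron, and the length used for its FPKM, fragments per kilobase of gene and scaled to library size, was 3760 bases against 851 bases in the union of its spliced transcripts. Zfas1 (ENSMUSG00000074578, chr2:167062934-167065862, plus strand) was counted over 2929 bases with 738 in spliced transcripts, and Snhg1 (ENSMUSG00000108414, chr19:8723475-8726443, plus strand) over 2969 bases with 865. For Snhg5 (ENSMUSG00000097195, chr9:88521050-88522929, minus strand) the lengths were 1730 and 1045 bases, and for Snhg8 (ENSMUSG00000104960, chr3:123507552-123508404, minus strand) 853 and 604 bases. Snhg6 (ENSMUSG00000098234, chr1:9941959-9944118, minus strand), Snhg12 (ENSMUSG00000086290, chr4:132308623-132311024, plus strand) and Snhg3 (ENSMUSG00000085241, chr4:132348014-132353686, minus strand) had no transcript of the retained-intron class, with 1146, 2402 and 986 counted bases. The counted exons of Snhg12 nevertheless covered its whole span of 2402 bases, introns of its 5-exon transcript included. Spliced and intron-containing RNA of Gas5, Zfas1, Snhg1, Snhg5, Snhg8 and Snhg12 were therefore added together in a single value, and their FPKM is per counted length and not per length of the spliced RNA.

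**Figure D1:**
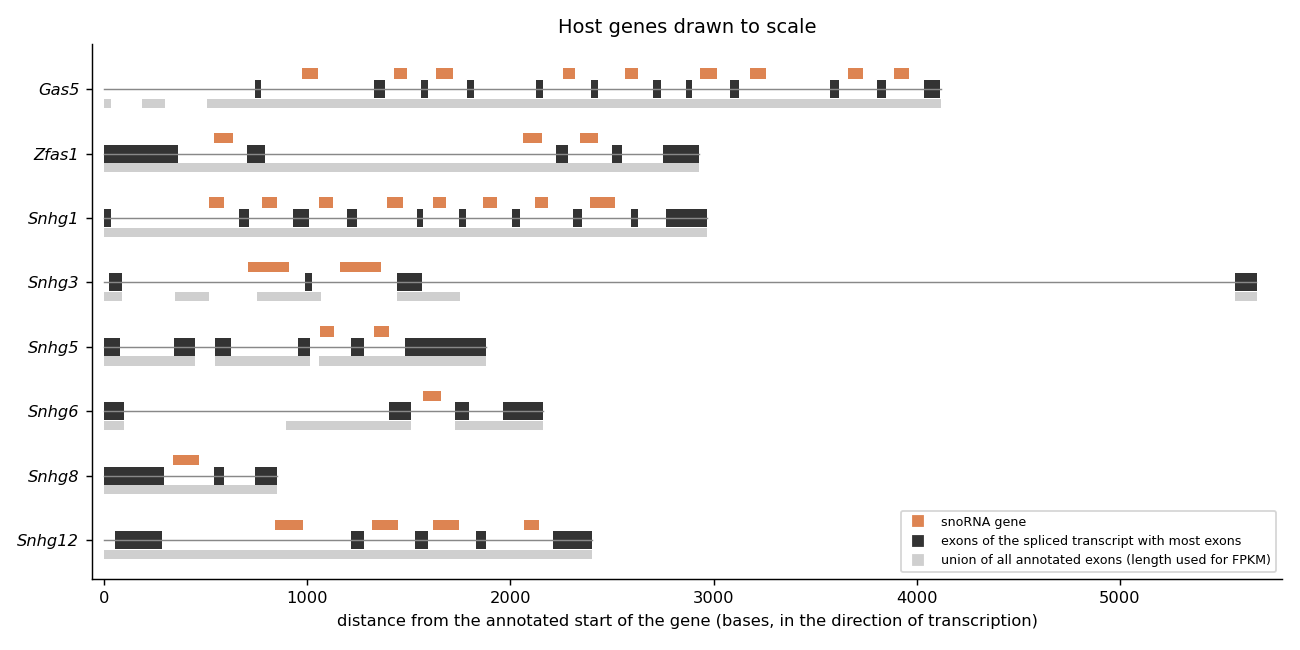
Map of the 8 host genes, drawn to scale with distance from the annotated start in bases on the x axis and 1 gene per row. Orange boxes mark snoRNA genes, dark boxes the exons of the spliced transcript with most exons and grey boxes the union of annotated exons whose length was used for FPKM; in Gas5 the grey boxes cover 3760 of 4118 bases.

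Library depth lay between 15989322 and 24875499 reads assigned to genes, and the depths of the groups overlapped. Mrps5 itself was at 5.99 ± 0.690 FPKM in Ctrl and 1.22 ± 0.0947 FPKM in cKO hearts (SD, n = 3 each; log2 fold change -1.65), in the direction of the labels. Over all 12944 genes tested, 4315 passed an adjusted p of 0.05, which is 33.3% of them, and the median log2 fold change was -0.02. Genes of the Y chromosome summed to 31.2 to 35.2 FPKM in the Ctrl hearts but to 30.9, 0 and 30.4 FPKM over cKO replicates 1, 2 and 3. The labels used here give no sex, and the study's reporting summary describes its mice as male, so that the absence of Y-linked reads in cKO replicate 2 goes against it. Without cKO replicate 2 the log2 fold change of Gas5 was 0.57 (adjusted p 0.00922, limma) and that of Snhg6 0.39 (adjusted p 0.0491, limma).

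Gas5 was the host with the clearest change. Gas5 stood at 5.91, 6.57 and 7.18 FPKM in the Ctrl hearts, in order of replicate number and from 424, 514 and 653 reads, whereas cKO hearts held 9.80, 11.0 and 10.6 FPKM, from 624, 969 and 1005 reads. Every cKO heart lay above every Ctrl heart. The means were 6.56 ± 0.632 and 10.5 ± 0.628 FPKM (SD, n = 3 each), a ratio of 1.60. On the log2(FPKM + 1) scale the change was 0.61 (SE 0.0881, 95% interval 0.40 to 0.82), with an adjusted p of 0.00356 in limma's moderated test over all genes. Of all tested genes 93.2% had a lower log2 fold change than Gas5.

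Among the other C/D box hosts, Snhg6 was higher in cKO hearts and Zfas1 was lower in each of them without passing the test. For Snhg6 the Ctrl replicates 1, 2 and 3 gave 8.15, 9.73 and 10.7 FPKM, from 178, 232 and 298 reads, while the cKO replicates gave 12.8, 11.4 and 12.7 FPKM, from 248, 305 and 367 reads. The groups did not overlap, with means of 9.54 ± 1.31 and 12.3 ± 0.785 FPKM (SD, n = 3 each). The log2 fold change was 0.34 (SE 0.108, 95% interval 0.09 to 0.60, adjusted p 0.0481, limma), and the call lay close to the threshold. Without Ctrl replicate 1, Ctrl replicate 2, cKO replicate 1 or cKO replicate 3 the Snhg6 values were 0.24, 0.36, 0.32 and 0.32, with adjusted p of 0.119, 0.103, 0.119 and 0.121 (limma), so the increase of Snhg6 stayed in direction and lost the call.

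Zfas1, which carries the Snord12 family, gave 3.31, 3.35 and 3.53 FPKM over Ctrl replicates 1, 2 and 3, from 185, 204 and 250 reads. The cKO replicates gave 2.44, 2.50 and 3.18 FPKM of Zfas1, from 121, 171 and 234 reads. All 3 cKO hearts lay below all Ctrl hearts, while the log2 fold change of -0.25 (SE 0.0943, 95% interval -0.48 to -0.03) did not pass the adjusted threshold (adjusted p 0.0806, limma). Without cKO replicate 3, the cKO heart nearest to Ctrl, the log2 fold change of Zfas1 was -0.34 with an adjusted p of 0.0297 (limma).

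The last pair of C/D box hosts gave intervals that include 0. The Ctrl hearts held 2.23, 2.51 and 1.92 FPKM of Snhg1 and the cKO hearts 1.81, 2.60 and 2.89 FPKM, in order of replicate number. Both the lowest and the highest value of Snhg1 were in cKO hearts, and the log2 fold change was 0.08 (95% interval -0.24 to 0.41, adjusted p 0.673, limma). The Ctrl hearts held 2.03, 2.20 and 1.89 FPKM of Snhg5 and the cKO hearts 2.15, 2.67 and 2.57 FPKM, in order of replicate number. Only cKO replicate 1 of Snhg5 fell within the Ctrl range, and the log2 fold change was 0.19 (95% interval -0.02 to 0.40, adjusted p 0.147, limma).

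None of the hosts with H/ACA snoRNAs passed the test. Snhg8, host of Snora24, gave 11.4, 9.86 and 13.0 FPKM over Ctrl replicates 1, 2 and 3 against 13.4, 12.1 and 13.9 FPKM over the same numbers of cKO. The groups overlapped, with a log2 fold change of 0.19 (95% interval -0.07 to 0.45, adjusted p 0.228, limma). Snhg12, which holds both kinds of snoRNA, gave 2.23, 2.26 and 1.88 FPKM over Ctrl replicates 1, 2 and 3 against 1.21, 1.75 and 2.28 FPKM over the same numbers of cKO. The 3 cKO hearts were spread more widely than the Ctrl hearts and overlapped them, and the log2 fold change of Snhg12 was -0.20 (95% interval -0.55 to 0.15, adjusted p 0.334, limma). Snhg3, host of Snora73a and Snora73b, drew 2 reads in Ctrl replicate 1, 2 reads in cKO replicate 2 and 0 reads in each of the other hearts. Snhg3 was below the filter of a mean of 0.5 FPKM and was not tested. Other genes covered 85.2% of the exon bases of Snhg3, including 135 exon bases of Rcc1 on the same strand, and how reads in shared exons were counted was not stated, so a low count of Snhg3 does not show a low level.

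**Figure D2:**
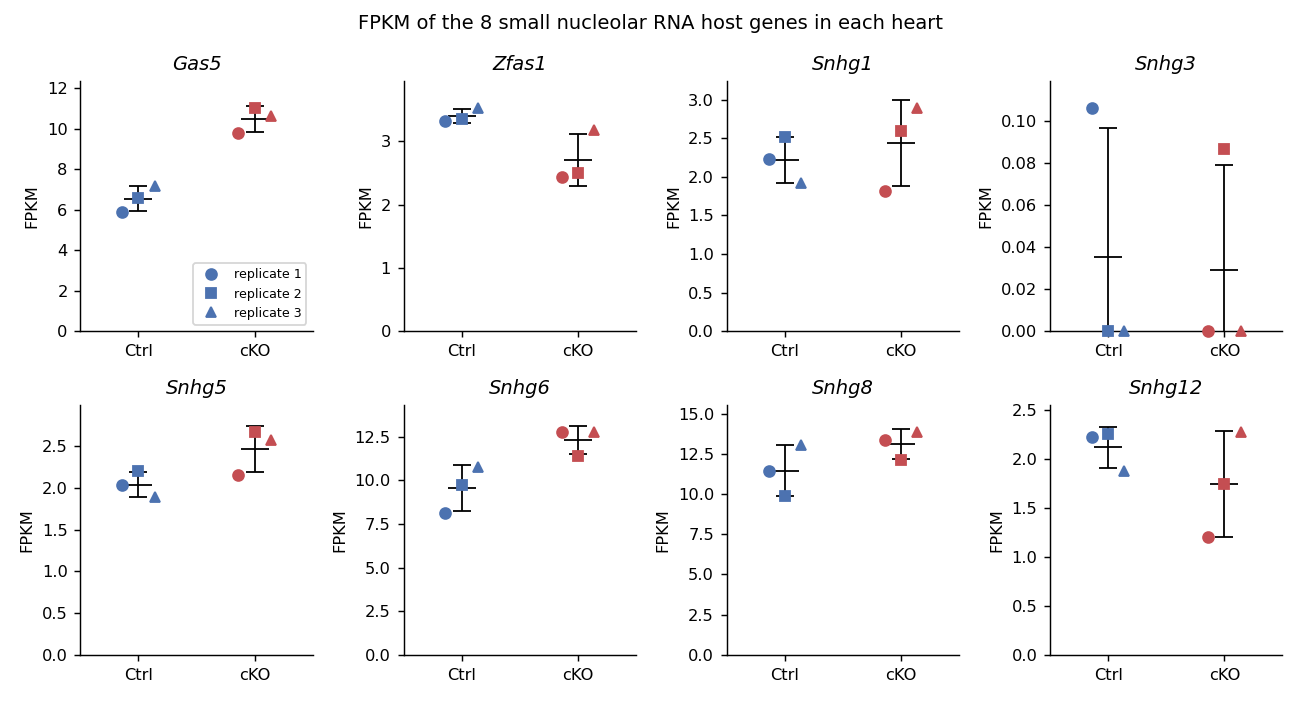
FPKM of each host gene (y axes, linear from 0 and scaled for each gene) in the 3 Ctrl and 3 cKO hearts, with marker shape for the replicate number, short horizontal lines for the group mean and bars for the SD. Gas5 separates most clearly, at 5.91 to 7.18 FPKM in Ctrl and 9.80 to 11.0 FPKM in cKO hearts, and Snhg3 rests on 4 reads in all.

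In all, 7 of the 8 hosts could be tested, and 2 of the 7, Gas5 and Snhg6, were higher in cKO hearts, while 0 were lower. Over all tested genes 16.3% were higher and 17% were lower. The groups did not overlap for 3 of the 7 hosts, with cKO hearts above Ctrl for 2 and below for 1, where this held for 51.2% of all tested genes, 24.8% with cKO above and 26.4% with cKO below. Neither count by itself sets the hosts apart. Noncoding genes gave another background: of 502 tested genes of the lincRNA, processed transcript and antisense classes, 39 were higher and 141 lower, with a median log2 fold change of -0.20, and Gas5 lay above 94.8% of them. The median over the 7 hosts was 0.19, and 5 of the 7 means were higher in cKO hearts.

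By level per length, the order of the hosts in Ctrl hearts was Snhg8, Snhg6, Gas5, Zfas1, Snhg1, Snhg12, Snhg5 and Snhg3. Snhg8 and Snhg6 overlapped in range, as did Snhg1, Snhg12 and Snhg5, while Gas5 and Zfas1 each stood apart from both neighbours. In cKO hearts Snhg8, Snhg6 and Gas5 still led, with Gas5 again below the range of Snhg6, and Zfas1, Snhg5 and Snhg1 then overlapped. The 8 hosts together summed to 35.4, 36.5 and 40.2 FPKM over Ctrl replicates 1, 2 and 3 but to 43.6, 44.1 and 48.2 FPKM over those of cKO. Gas5 made up 16.7% to 18.01% of that sum in Ctrl and 22.1% to 25.005% in cKO hearts. Of all FPKM in a heart the hosts took 0.00725% to 0.00883% in Ctrl and 0.0104% to 0.0116% in cKO hearts. All FPKM of a heart summed to 455062 to 502955 in Ctrl but to 399440 to 418402 in cKO hearts, so this share also rose through a lower total.

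Within a heart, the level of Gas5 was set against that of each of the 6 other tested hosts, and for 5 of these 6 ratios every cKO heart lay above every Ctrl heart. All 6 ratios share Gas5, which was itself higher in every cKO heart, so they are not independent of that result or of each other. By level alone 24.8% of all tested genes separated with cKO above, and how many would separate in such ratios was not counted. The ratio of Gas5 to Zfas1 was 1.79, 1.96 and 2.03 over Ctrl replicates 1, 2 and 3 but 4.02, 4.41 and 3.35 over those of cKO. The ratio of Gas5 to Snhg12 was 2.66, 2.91 and 3.83 over the same Ctrl hearts but 8.14, 6.32 and 4.65 over those of cKO. Smaller gaps stood between the groups for Gas5 to Snhg6, at 0.668 to 0.726 in Ctrl and 0.767 to 0.968 in cKO hearts, for Gas5 to Snhg8, at 0.517 to 0.666 and 0.733 to 0.912, and for Gas5 to Snhg5, at 2.91 to 3.80 and 4.13 to 4.56. The ratio of Gas5 to Snhg1 overlapped, at 2.66, 2.62 and 3.74 over the Ctrl replicates and 5.41, 4.25 and 3.67 over those of cKO, with an exact two-sided permutation p of 0.2. The other 5 ratios had an exact two-sided permutation p of 0.1 each, the smallest that 3 against 3 hearts allow.

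To relate the hosts to the translation machinery, the mRNAs of 79 cytosolic ribosomal proteins were taken as the reference. Of these, 57 were higher in cKO hearts and 0 lower, with a median log2 fold change of 0.41, and 22 of 32 proteins of the small subunit and 35 of 47 of the large subunit were among them. The range ran from Rpl24 at -0.14 (adjusted p 0.304, limma) to Rpl3 at 1.60 (adjusted p 4e-04, limma). The mean log2(FPKM + 1) over the 79 genes was 6.68, 6.71 and 6.62 over the Ctrl replicates but 7.19, 7.06 and 7.10 over those of cKO. Against this distribution Gas5 lay high, with 15 of the 79 mRNAs changed by more than it on the log2 scale, and 49 changed by more than Snhg6. On this scale Zfas1 and Snhg12 both lay below all 79. The lowest of these, Rpl24, had means of only 0.612 FPKM in Ctrl and 0.464 FPKM in cKO hearts, from 7 to 16 reads per heart. As a ratio of group means, cKO over Ctrl and without a pseudocount, Zfas1 was at 0.797 and Snhg12 at 0.823. Rpl24 fell by a larger share than both, so their place below all 79 does not hold without the pseudocount. Pseudocounts press down the change of low genes: 72 of the 79 ribosomal protein genes had a mean of at least 50 FPKM, while every host was under 15 FPKM in each heart.

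**Figure D3:**
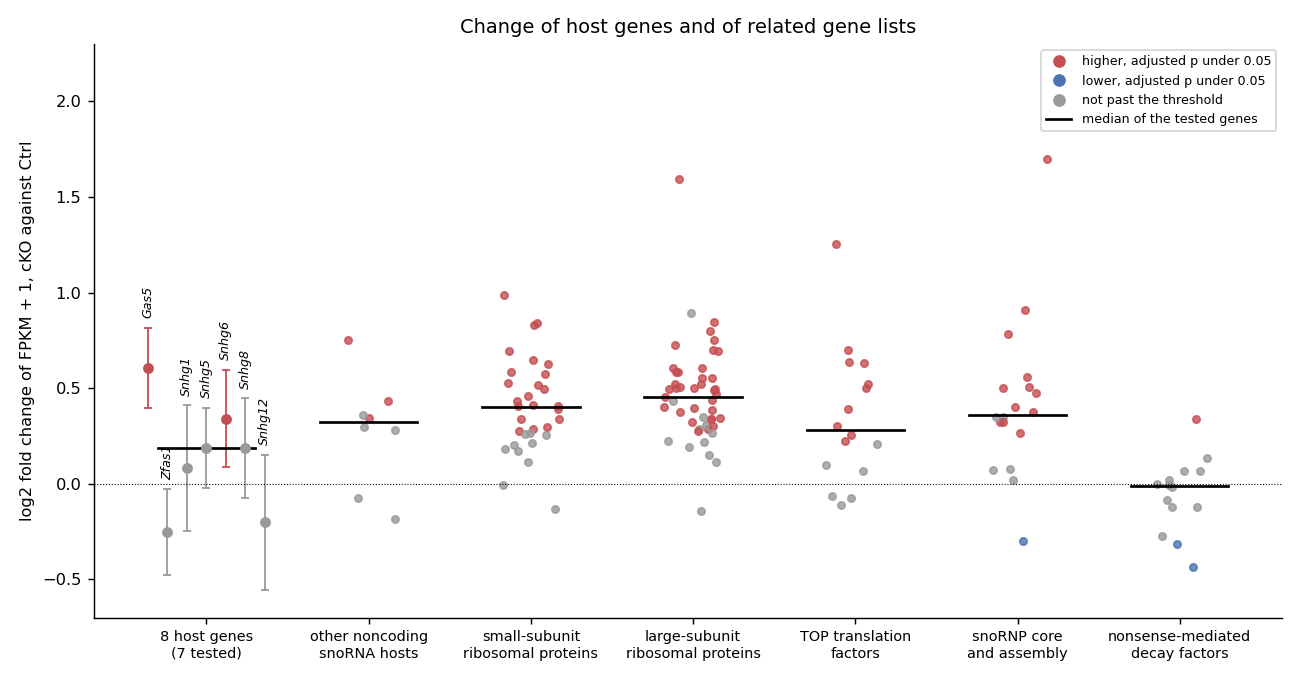
Log2 fold change of FPKM + 1, cKO against Ctrl (y axis), of the host genes with 95% intervals and of the tested genes of 6 related lists, with horizontal lines at the list medians and colour for the limma call at an adjusted p of 0.05. The hosts have a median of 0.19, with Gas5 at 0.61 inside the upper part of the ribosomal protein range and Zfas1 and Snhg12 below its lower end. That end is set by Rpl24, at means of 0.612 FPKM in Ctrl and 0.464 FPKM in cKO hearts. As a ratio of group means, without the pseudocount, Rpl24 fell by a larger share than Zfas1 and Snhg12.

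The difference between a host and the ribosomal protein mean of the same heart was then tested in its own fit over all genes. From Ctrl to cKO hearts Gas5 rose by 0.16 more than the ribosomal protein mean (log2 scale, 95% interval -0.10 to 0.43, adjusted p 0.217, limma). This interval holds rises of Gas5 both larger and slightly smaller than that of the mean. Snhg6 had a relative change of -0.10 (adjusted p 0.439, limma). Zfas1 fell relative to the ribosomal protein mean by 0.69 on the log2 scale (95% interval -0.96 to -0.43, adjusted p 0.00166, limma), and Snhg12 fell by 0.64 (95% interval -1.04 to -0.25, adjusted p 0.0106, limma). Relative to the mean, Snhg1 was at -0.36, Snhg5 at -0.25 and Snhg8 at -0.26, with adjusted p of 0.0702, 0.0704 and 0.0955 (limma). In this fit 6 of 7 hosts had a negative change, 2 of 7 were lower past the threshold and 0 higher, where 72.2% of all tested genes were called, 68.1% lower and 4.12% higher. The 2 calls thus give the distance of Zfas1 and Snhg12 from a reference that itself rose, and do not set them apart from most genes.

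Leaving out a single heart took 3 of these relative values past the threshold. Without cKO replicate 3 Snhg1 was at -0.47 relative to the ribosomal protein mean (adjusted p 0.0452, limma), without cKO replicate 2 Snhg5 was at -0.33 (adjusted p 0.0359, limma), and without Ctrl replicate 2 Snhg8 was at -0.37 (adjusted p 0.0252, limma). The order of hearts also differed between the kinds of gene. Among cKO hearts, replicate 1 had the highest ribosomal protein mean and was the lowest of the 3 for 5 of the 7 hosts, Gas5, Zfas1, Snhg1, Snhg5 and Snhg12. It was also the library of lowest depth, at 15989322 reads, and the part of depth in this order was not tested.

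**Figure D4:**
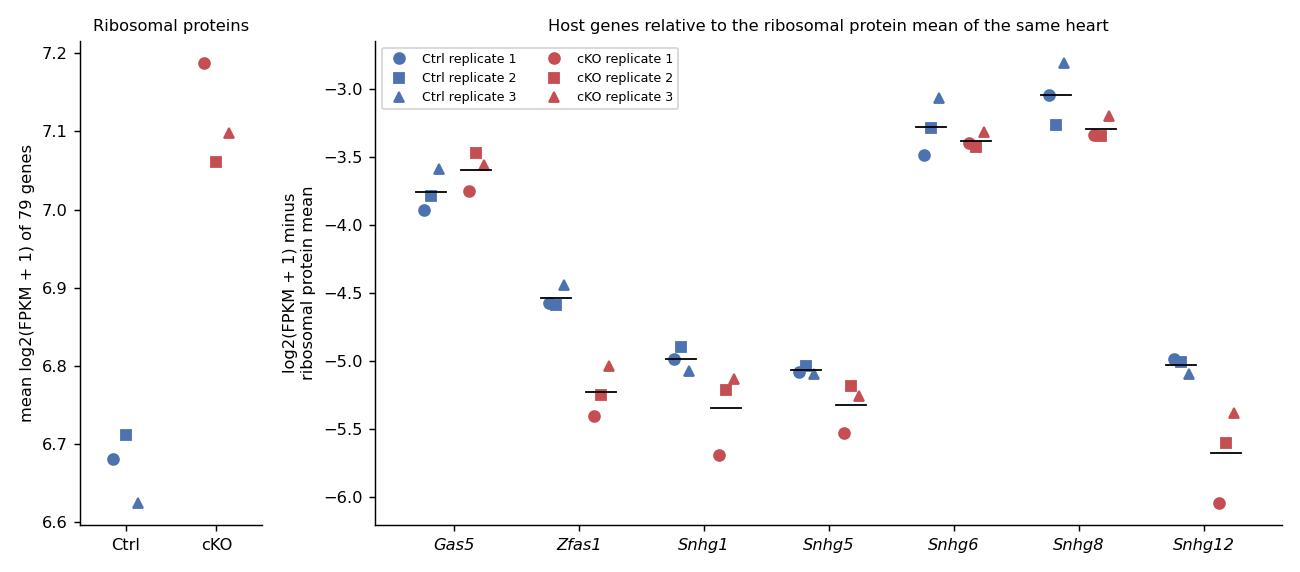
Left, mean log2(FPKM + 1) of 79 ribosomal protein genes in each heart; right, log2(FPKM + 1) of 7 host genes minus that mean in the same heart, with a line at each group mean and marker shape for the replicate. The ribosomal protein mean is 6.62 to 6.71 in Ctrl and 7.06 to 7.19 in cKO hearts, and for Zfas1, Snhg12, Snhg1 and Snhg5 all cKO hearts lie below all Ctrl hearts. Of these, Snhg1 and Snhg5 did not pass the test. Relative to the same mean 68.1% of all tested genes were lower past the threshold, and how many of them separate in this way was not counted.

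Some ribosomal protein genes are snoRNA hosts themselves. Of the 79, 30 held an annotated snoRNA gene on the same strand, and 22 of these 30 were higher in cKO hearts with a median log2 fold change of 0.50. Of the 49 without a snoRNA, 35 were higher with a median of 0.35. Among 162 tested protein-coding hosts outside the ribosomal proteins, 47 were higher and 20 lower, with a median of 0.07. No difference between these classes was tested.

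A further list of noncoding genes, most of them named as snoRNA hosts, was higher where it passed the test. Of its 15 genes 8 were tested, 2 of which, Snhg10 and Snhg20, held no annotated snoRNA. Of the 8, 3 were higher in cKO hearts and 0 lower, with a median log2 fold change of 0.32. Over all tested genes 16.3% were higher and 17% lower. Snhg15 had means of 0.863 FPKM in Ctrl and 2.16 in cKO hearts, a change of 0.75 on the log2 scale (adjusted p 0.0054, limma). Epb41l4aos went from 10.8 to 15.0 FPKM (0.44, adjusted p 0.0301), and Snhg4 from 0.442 to 0.833 FPKM (0.35, adjusted p 0.0158, limma for both). Snhg4 reached the filter of 0.5 FPKM only through its cKO hearts. With a minimum mean of 1 FPKM, 2 genes of the list were higher. The only negative values were those of the 2 genes without a snoRNA, Snhg10 at -0.19 and Snhg20 at -0.07 (adjusted p 0.599 and 0.6, limma). Hosts were also collected by position, as genes not annotated as protein-coding with a snoRNA gene inside them, the 8 members left out. Of these, 6 of 14 tested genes were higher and 1 lower, with a median of 0.29. Snhg4 was among these 6, and so was Cct6a, which bears the name of a chaperonin subunit. The set is therefore not purely one of noncoding hosts.

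Genes that start beside or across a host were examined, since reads and start regions may be shared. Snhg1 lies 105 bases from Slc3a2, which is read from the opposite strand and encodes the heavy chain of heteromeric amino acid transporters. The 3 Ctrl hearts held 13.3, 11.4 and 15.0 FPKM of Slc3a2 and the 3 cKO hearts 27.6, 37.2 and 34.7 FPKM, a log2 fold change of 1.26 (adjusted p 0.00166, limma). The ratio of Slc3a2 to Snhg1 was 4.54 to 7.82 in Ctrl and 12.0 to 15.3 in cKO hearts (exact two-sided permutation p 0.1, the smallest possible), without overlap between the groups. Slc3a2 was itself higher in every cKO heart, so this ratio is not independent of that result. By level alone 24.8% of all tested genes separated with cKO above, and how many would separate in such ratios was not counted.

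Other neighbours of the hosts mostly did not pass the test. Zfas1 shares 82 exon bases with Znfx1 on the opposite strand, and Znfx1 had a log2 fold change of 0.07 (adjusted p 0.513, limma) against -0.25 for Zfas1. Gas5 overlaps Zbtb37 by 428 bases, none of them exonic in both, and Zbtb37 had a log2 fold change within 0.01 of 0. Beside Snhg12, Trnau1ap, which acts in selenocysteine incorporation, was at 0.19 (adjusted p 0.371, limma) and Rab42 fell by 0.44 on the log2 scale (adjusted p 0.0436, limma). Rcc1, the nuclear exchange factor of Ran that spans Snhg3, was at 0.31 (adjusted p 0.189, limma). Snhg6 shares 127 exon bases with Mcmdc2, which was at or below 0.0399 FPKM in each heart. No tested gene lay within 10 kb of Snhg5 or Snhg8.

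The start regions were inspected for the pyrimidine run of TOP transcripts. RefSeq windows on GRCm38.p6, from 250 bases before to 50 after each annotated start, were at hand for 7 hosts, with 2 windows for Gas5. Windows of 4 hosts are shown, for the hosts with the largest increase and the largest decreases and for the most abundant, with the run (a C followed by at least 4 pyrimidines, beginning within 10 bases of the start) in capitals, and for Gas5 also TGACGTCA, the palindromic cyclic AMP response element.
Gas5 start window (chr1:161034916-161035215, plus strand): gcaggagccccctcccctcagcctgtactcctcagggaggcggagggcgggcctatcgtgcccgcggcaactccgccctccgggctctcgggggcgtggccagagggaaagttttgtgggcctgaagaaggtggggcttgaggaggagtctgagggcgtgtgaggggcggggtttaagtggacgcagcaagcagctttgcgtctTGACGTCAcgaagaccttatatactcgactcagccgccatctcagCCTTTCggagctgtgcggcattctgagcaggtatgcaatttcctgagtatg
Snhg12 start window (chr4:132308428-132308727, plus strand): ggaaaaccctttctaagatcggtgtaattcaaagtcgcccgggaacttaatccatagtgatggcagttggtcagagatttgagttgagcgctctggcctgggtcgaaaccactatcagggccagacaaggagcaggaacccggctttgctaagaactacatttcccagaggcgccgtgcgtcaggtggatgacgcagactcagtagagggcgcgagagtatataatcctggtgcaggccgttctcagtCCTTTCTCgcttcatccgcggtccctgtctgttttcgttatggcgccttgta
Snhg8 start window (chr3:123508287-123508586, minus strand): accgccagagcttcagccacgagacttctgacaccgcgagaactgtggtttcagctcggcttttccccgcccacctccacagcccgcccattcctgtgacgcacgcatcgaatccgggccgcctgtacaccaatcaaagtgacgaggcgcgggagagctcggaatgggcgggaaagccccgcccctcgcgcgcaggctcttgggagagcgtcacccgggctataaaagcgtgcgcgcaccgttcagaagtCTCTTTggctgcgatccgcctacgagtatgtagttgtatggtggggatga
Zfas1 start window (chr2:167062684-167062983, plus strand): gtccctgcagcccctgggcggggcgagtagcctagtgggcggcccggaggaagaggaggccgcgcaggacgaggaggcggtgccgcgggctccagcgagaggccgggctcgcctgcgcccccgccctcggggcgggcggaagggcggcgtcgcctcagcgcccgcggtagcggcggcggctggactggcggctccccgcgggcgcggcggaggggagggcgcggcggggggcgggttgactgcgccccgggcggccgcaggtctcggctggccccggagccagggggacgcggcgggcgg
In the Gas5 window the run CCTTTC began 1 base before the annotated start and TGACGTCA began 46 bases before it. The other Gas5 window held neither. Snhg12 had the longest run, CCTTTCTC, from 2 bases before the start, and Snhg8 had CTCTTT at the start base. Snhg3 and Snhg5 had runs from 2 and 9 bases after it, and none was found in the windows of Zfas1 and Snhg1. Of 32851 windows of the same length, 30.7% held such a run, and 37 of 68 windows of ribosomal protein genes (54.4%) did. Letters searched on both strands were the E-box CACGTG, in 7.15% of all windows, TGACGTCA, in 1.79%, and TGATGNAA, in 3.97%. Of the 68 windows of ribosomal protein genes, 8 held the E-box, 6 (8.82%) held TGACGTCA and 0 held TGATGNAA. Among the host windows only TGACGTCA was found, in Gas5. Snhg12 carried the longest run and was not higher in cKO hearts, and Zfas1 showed no run at this annotated start.

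The other parts of the snoRNA and TOP systems were mostly higher. Of 18 proteins of the snoRNP core and its assembly, 12 were higher and 1 lower in cKO hearts, with a median log2 fold change of 0.36. Nhp2, a core protein of H/ACA particles, went from 19.8 to 67.2 FPKM (1.70, adjusted p 0.0012, limma), and Rpap3, part of the chaperone complex that assembles the particles, fell by 0.30 on the log2 scale (adjusted p 0.0257, limma). The methyltransferase fibrillarin (Fbl), the pseudouridine synthase dyskerin (Dkc1), Nop56 and Nop58 were among those that rose. Of 16 translation factors with TOP mRNAs, 10 were higher and 0 lower (median 0.28), from Eif3f at -0.11 (adjusted p 0.25, limma) to Eef1a1, the elongation factor that delivers tRNA, at 1.26 (adjusted p 0.0023, limma). Larp1, which binds TOP mRNAs, was at 0.25 (adjusted p 0.0798, limma).

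Factors that act on the hosts' spliced RNA showed no shared direction. Of 14 nonsense-mediated decay factors, 1 was higher and 2 were lower (median -0.01). The exon junction protein Rbm8a rose by 0.34 (adjusted p 0.0108, limma), and Upf2, which bridges the junction complex and the helicase of the pathway, fell by 0.44 on the log2 scale (adjusted p 0.0096, limma). Gas5 RNA is known to bind the glucocorticoid receptor. Of 14 genes of this receptor and its responses, 1 was higher and 3 were lower in cKO hearts (median -0.46), from Klf15 at -0.999 (adjusted p 0.0137, limma) to the cell cycle inhibitor Cdkn1a at 1.08 (adjusted p 0.0137, limma).

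Genes whose pattern over the 6 hearts was most like that of the hosts are given as a description, without a test. To the mean of the 7 tested hosts these were Bcl10, Pstpip1, Papd4, Rgs7bp and Zscan29, with Pearson r of 0.998 to 0.976. The single gene most like Gas5 was Osbpl8 (r 0.998), that most like Zfas1 was Sp3 (r 0.996), and that most like Snhg6 was Gm12165 (r 0.996). For Snhg8 it was Sptlc2 (r 0.994), for Snhg5 Lyrm7 (r 0.991), for Snhg12 Dusp8 (r 0.978) and for Snhg1 Zfp626 (r 0.968). Each of the 7 hosts had a gene at 0.968 or above among 12944, over 6 hearts in 2 groups, and these names single out nothing about the hosts.

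Cell type markers moved between the groups as well. Of 10 cardiomyocyte markers 7 were lower in cKO hearts and 0 higher, with sums of 22499 to 27818 FPKM in Ctrl and 12799 to 20201 FPKM in cKO hearts, and of 8 endothelial markers 5 were lower, with sums of 156 to 179 and 104 to 122 FPKM. Of 8 fibroblast markers 3 were higher and 1 lower, with overlapping sums, and of 7 smooth muscle and pericyte markers 2 were higher and 2 lower. Of 10 macrophage markers 1 was higher and 1 lower, and 0 of 12 lymphocyte markers reached the filter. Atrial markers summed to 128 to 2054 FPKM in Ctrl and 575 to 1675 FPKM in cKO hearts, with 0 of 5 past the test; the highest sum was in Ctrl replicate 1. The hosts are expressed in many cell types, and fewer cells of a type and less RNA per cell cannot be told apart in tissue RNA. The part of cell makeup in the change of Gas5 or Snhg6 was not tested.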

How the data were processed

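RNA of 3 Ctrl and 3 cKO hearts was measured by poly-A selected paired-end RNA-seq. Per the labels and the methods of the study, the authors aligned reads with HISAT2 2.0.5, counted them per gene with featureCounts 1.5.0-p3 and computed the deposited FPKM values, 1 column per heart; the other deposited value used was gene length. Strand setting and treatment of reads with several alignments or in shared exons were not stated, so values of hosts that share exon bases with other genes (Zfas1, Snhg3, Snhg6) or with their own snoRNA rows (all but Snhg6) are uncertain to that extent. The submitters' processing notes list mm9, but of 54409 gene identifiers that GENCODE M21 also holds, 53499 matched it in start and end and none was on another chromosome, so coordinates are given on GRCm38.

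FPKM multiplied by gene length gave whole reads (within 0.01 of a read) for all values, which gave the depths. The scale was log2(FPKM + 1), on which low genes change too little, and 12944 genes averaging 0.5 FPKM or more were kept. Groups were compared with limma 3.58.1 under R 4.3.3, by lmFit followed by eBayes with trend, two-sided and without covariates. Adjusted p-values follow Benjamini and Hochberg over the 12944 genes, with a threshold of 0.05. For the comparison with ribosomal proteins, each heart's mean over the 79 genes was subtracted from every gene before the fit. Ratios used exact permutation tests. The code was tested on simulated data. Replicates were separate hearts per the labels.

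The members, gene lists and ratios were chosen with earlier results of these data known. Named genes are the members, the tested genes with the highest and lowest change in the lists described, the neighbours within 10 kb, Larp1, the genes most like each host over 6 hearts, and Mrps5; Fbl, Dkc1, Nop56, Nop58, Snhg20, Snhg15, Epb41l4aos and Snhg4 were named after their values were seen. One neighbouring gene that this rule selects is not reported here. Sequences came from GENCODE M21 and RefSeq tables. Alternatives were another pseudocount (0.1), no filter or a minimum of 1 FPKM, other scalings, voom on the recovered reads, eBayes without trend, a replicate block, each heart left out in turn and, added after seeing the data, ribosomal proteins of at least 50 FPKM as the reference.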

Additional observations from a re-analysis of the deposited data

How the results depend on the processing

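Gas5 kept its direction and its call in all 14 alternatives run, at log2 fold changes of 0.54 to 0.69 with adjusted p (limma) of 0.00169 to 0.0178. Snhg6 kept its direction in all 14 and lost the call in 8: at 0.34 with no filter (adjusted p 0.126), without the trend (0.0515) and under the replicate block (0.0667), at 0.37 with voom on the recovered reads (0.0543), and on leaving out Ctrl replicate 1, Ctrl replicate 2, cKO replicate 1 or cKO replicate 3, with a range of 0.24 to 0.42 over the hearts left out. The number of hosts that were higher was then 1 with no filter, with voom, without the trend and under the block, and 1 to 2 with a heart left out; the number lower was 0 to 1, the 1 being Zfas1 without cKO replicate 3. Apart from the smaller groups when a heart is left out, the cause was not tested.

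Leaving out a heart gave -0.34 to -0.20 for Zfas1 and -0.0139 to 0.22 for Snhg1, which turned to -0.0139 without cKO replicate 3. Relative to ribosomal proteins it gave -0.47 to -0.19 for Snhg1, -0.33 to -0.15 for Snhg5, -0.37 to -0.14 for Snhg8 and -0.20 to 0.00465 for Snhg6, which turned to 0.00465 without Ctrl replicate 3. With no filter, where most of the genes had hardly any reads, Snhg1 at -0.36, Snhg5 at -0.25 and Snhg8 at -0.26 passed the threshold in that comparison. With voom on the recovered reads the same hosts were at -0.29, -0.16 and -0.25 and did not pass it (adjusted p 0.261, 0.478 and 0.1755, limma). Zfas1 and Snhg12 relative to ribosomal proteins kept their calls in all 16 alternatives. Over all genes, 1400 to 1993 were higher and 1434 to 2006 lower with a heart left out; the lowest values came without Ctrl replicate 3 for those higher and without Ctrl replicate 2 for those lower, where Ctrl replicate 3 gave 1450.

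Replicate numbers showed no clear pairing of the hearts: deviations of same-numbered hearts correlated at -0.06, 0.17 and -0.01. With so few hearts per group these correlations are not independent and cannot exclude a pairing. The methods of the study call the controls littermates, and the labels do not say which hearts shared a litter. With the replicate block Snhg8 relative to ribosomal proteins passed the threshold at -0.26 (adjusted p 0.0483, limma) and Snhg6 lost its call at 0.34; no other host changed its call under the block.

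Counts were low for some hosts, at 49 to 138 reads in a heart for Snhg12 and 63 to 112 for Snhg5. The part of depth in the missing calls was not tested.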
